A study of Mus musculus with 8 samples.

Results

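Negative feedback regulators of TGFβ signaling were followed in mouse pancreatic ductal adenocarcinoma (PDAC) cells whose *Smad4* could be switched off and on. The 8 genes were taken by symbol from the 53465 genes of the count table: the nuclear corepressors *Ski*, *Skil*, *Tgif1* and *Tgif2*, the ubiquitin ligases *Smurf1*, *Smurf2* and *Trim33*, and the membrane inhibitor *Pmepa1*. All 8 passed the filter on low counts and were tested among 14301 genes. Their expression was read in 8 RNA-seq libraries, 4 groups of 2, each group holding 1 library of line B73 and 1 of line B87.

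Both lines were grown from pancreatic tumors of KC-shSmad4 mice, in which Ptf1a-Cre turns on a reverse tetracycline transactivator with mKate2 in the pancreas, and doxycycline (Dox) then drives a short hairpin RNA (shRNA) against *Smad4* linked to GFP. All groups therefore carried the hairpin construct. Smad4-off cells stayed on Dox, and Smad4-on cells had been without Dox for 5 days before plating. From 24 h after plating, each state was treated for 24 h with 100 pM recombinant mouse TGFβ1 or with SB505124 (2.5 µM). SB505124 blocks the kinase of the type I TGFβ receptor. No library without either agent and no line with a control hairpin was analysed here, so the action of TGFβ1 cannot be told apart from that of the inhibitor, nor Dox withdrawal from *Smad4* restoration. Below, a rise, fall or response with TGFβ1 means the level against that with SB505124. The 2 lines were the only replicates, and p-values measure the spread between them after their average difference is taken out.

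TGFβ binds paired receptor kinases, which phosphorylate SMAD2 and SMAD3. These join SMAD4, enter the nucleus and act on target genes. The pathway also feeds back on itself. SKI and its relative SKIL (SnoN) bind SMAD complexes and bring histone deacetylase corepressors to them, and TGIF1 and TGIF2 are homeodomain proteins that repress SMAD2 and SMAD3 targets. SMURF1 and SMURF2 are HECT ubiquitin ligases that act on SMADs and, through SMAD7, on the receptor. PMEPA1 holds SMAD2 and SMAD3 away from the receptor at endosomal membranes, and TRIM33 (TIF1γ) is a RING ligase that monoubiquitinates SMAD4. *Skil*, *Pmepa1* and *Smurf2* are known TGFβ target genes.

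Of the members, 5 had an entry in the table of RefSeq promoters (GRCm38.p6): *Ski*, *Tgif1*, *Tgif2*, *Smurf1* and *Smurf2*. The 250 bases before each RefSeq start were searched on both strands for CAGAC, the core of the SMAD-binding box. A match lay before the most upstream start of *Tgif1*, *Smurf1* and *Smurf2*, and none lay before *Ski* or *Tgif2*. The windows before those 3 starts are shown from base -250 to base -61 relative to the start, on the gene's strand. CAGAC or its complement GTCTG is in capitals.
*Tgif1* (chr17:70853593-70853782, minus strand): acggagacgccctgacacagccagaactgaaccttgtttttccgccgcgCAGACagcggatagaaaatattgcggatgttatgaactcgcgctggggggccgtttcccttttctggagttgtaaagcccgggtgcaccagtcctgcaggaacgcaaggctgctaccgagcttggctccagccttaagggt
*Smurf1* (chr5:144965891-144966080, minus strand): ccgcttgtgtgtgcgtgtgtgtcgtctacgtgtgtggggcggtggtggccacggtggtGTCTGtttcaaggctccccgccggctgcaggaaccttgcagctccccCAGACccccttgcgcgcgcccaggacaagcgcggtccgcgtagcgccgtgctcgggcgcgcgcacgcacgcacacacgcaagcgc
*Smurf2* (chr11:106920776-106920965, minus strand): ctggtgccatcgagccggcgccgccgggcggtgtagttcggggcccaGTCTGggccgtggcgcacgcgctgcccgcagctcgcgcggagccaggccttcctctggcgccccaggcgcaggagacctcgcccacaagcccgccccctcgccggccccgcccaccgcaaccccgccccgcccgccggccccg
The *Smurf1* window held 2 matches, at -192 and -145, and the *Smurf2* window 1, at -203. Before the most upstream *Tgif1* start the match lay at -201. Some further *Tgif1* starts, not shown, had CAGAC as well, at -191, -59 and -17. CAGAC was common, since 42.19% of the 32851 promoter windows in the table held it. The GC-rich SMAD motif GGCGC, present in 32.02% of all windows, lay 7 times before *Ski*, 6 times before *Smurf2*, 4 times before *Smurf1* and 2 times before *Tgif2*. These windows were 87.6%, 82.0%, 74.8% and 74.0% G or C, in that order. Matches per window were not counted over all promoters. Among the *Tgif1* starts GGCGC lay before 1, at -71. The palindromic element GTCTAGAC (0.17% of all windows) and the AP-1 element TGANTCA (6.75%) matched before none of the 5 genes, and the TGIF element TGTCA (39.95%) matched before 3 of the 5 *Tgif1* starts in the table and before no other member. None of these motifs contains another, although single matches of GGCGC overlapped. These are matches of letters, and binding was not measured.

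Before the members were compared, the hairpin's target and the cell identity were checked. *Smad4* was at 33.7 to 35.5 CPM (counts scaled to a common library size with TMM normalization) in the 4 Smad4-off libraries and at 97.4 to 117 CPM in the 4 Smad4-on libraries, so every library fitted its label and Smad4-off cells kept part of the transcript. The libraries held 18389235 to 23440550 counts, at which 3 counts, taken as the detection floor, were 0.125 to 0.162 CPM. Of 6 epithelial markers, 5 were above that floor in every library, *Krt8*, *Krt18* and *Krt19* leading, while *Epcam* was at 0.153 to 2.11 CPM. The summed level of the 6 ran from 1156 to 5547 CPM. It was lower in every B87 library than in the B73 library of the same group. *Cdh1*, which encodes E-cadherin, was lower with TGFβ1 than with SB505124 within each line and *Smad4* state. In Smad4-on cells it was at 109 against 469 CPM in B73 and 11.5 against 80.5 CPM in B87. This fall was called with *Smad4* on (edgeR adjusted p 0.00936) but not with it off (adjusted p 0.162). *Krt19* was called lower with TGFβ1 in both states (edgeR adjusted p 0.000454 on and 0.0067 off). *Krt8*, *Krt18*, *Epcam* and *Muc1* were called for TGFβ1 in neither state, and *Krt18* was higher with it in Smad4-on cells of both lines. Summed fibroblast markers reached 0.817 to 33.7 CPM, almost all of it *Pdgfra* and *Pdgfrb* in B87, with *Lum* at 0 throughout and *Dcn* and *Thy1* at or under the floor. Immune markers summed to 1.33 to 6.39 CPM, nearly all *Cd68*, with *Adgre1* and *Cd3e* at 0. Acinar markers reached 1.33 CPM, with *Cpa1* and *Ptf1a* at 0. Endothelial markers summed to 0.702 to 26.1 CPM, mostly *Kdr* and *Cdh5*, which moved with the groups. *Pecam1* stayed at 0 to 0.214 CPM and *Tek* at 0 to 0.153 CPM. *Kdr*, which encodes a VEGF receptor, was at 6.04 CPM in B73 and 25.2 CPM in B87 Smad4-off cells with TGFβ1, where it was called higher than with SB505124 (edgeR adjusted p 0.00615) and than in Smad4-on cells with TGFβ1 (adjusted p 0.00289). *Cdh5*, which encodes VE-cadherin, was at 0.797 to 2.76 CPM with TGFβ1 and at 0 to 0.166 CPM with SB505124, and was called higher with TGFβ1 in both *Smad4* states (adjusted p 0.00177 with *Smad4* on and 0.0117 with it off). The part of these markers in the results below was not tested. Fewer expressing cells and less RNA per cell cannot be told apart in such bulk libraries.

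The first question was how far the feedback genes differ between TGFβ1 and SB505124 when *Smad4* is present. In Smad4-on cells 7 of the 8 genes were higher with TGFβ1 than with SB505124, all but *Tgif2*, with an edgeR quasi-likelihood p under 0.05 after Benjamini-Hochberg adjustment over all tested genes. Of all tested genes, 15.6% were called higher and 17.6% lower in this comparison. The rises ran from 1.38-fold for *Trim33* to 14.7-fold for *Pmepa1*, and the median log2 fold change of the 8 was 0.90, against -0.02 over all tested genes. Of the 7, *Pmepa1*, *Skil* and *Tgif1* also rose over 2-fold (5.62% of genes higher under that rule). The study asks for over 2-fold too, but in DESeq2, and in vitro it compared cells without and with Dox.

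**Figure D1:**
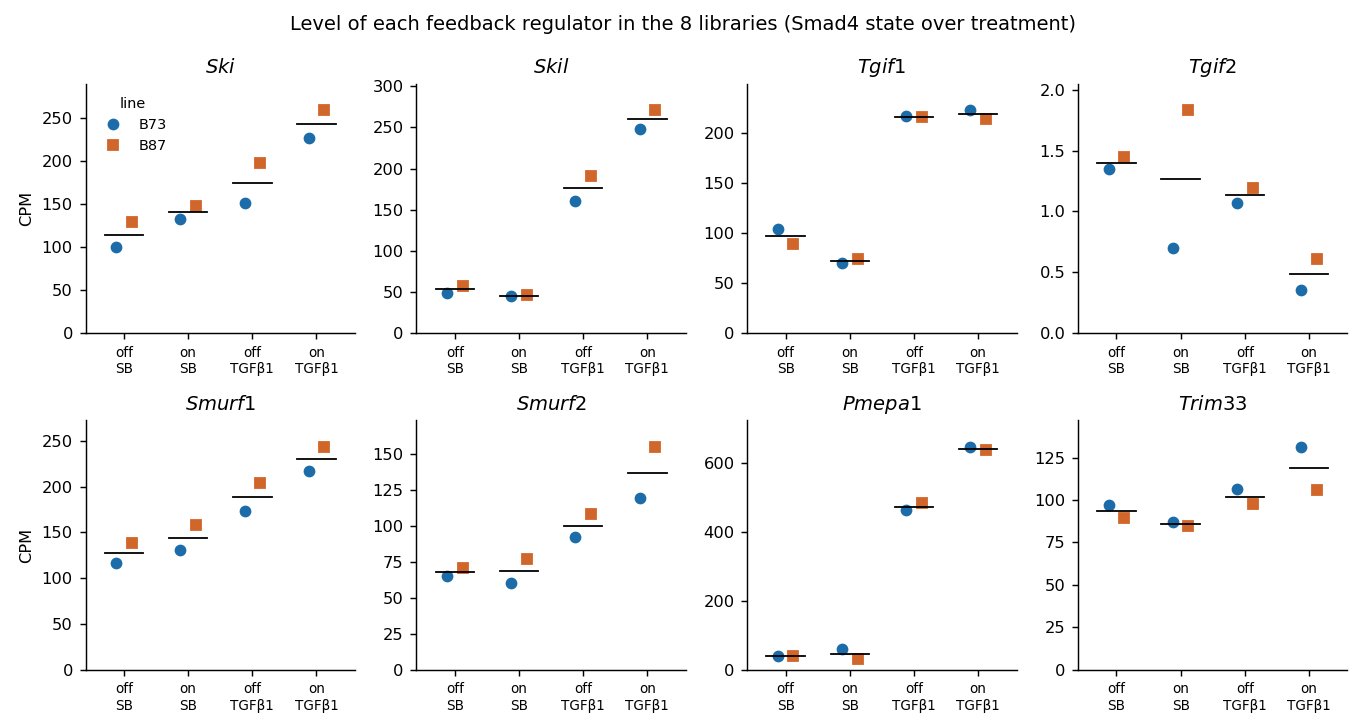
Level of each feedback regulator (CPM, linear axis from 0, scale differing between panels) in the 4 groups, with 1 point per library, circles for line B73, squares for B87 and a bar at the group mean. *Pmepa1*, *Skil*, *Tgif1*, *Ski*, *Smurf1* and *Smurf2* separate by treatment. All of these but *Tgif1*, which is level between the *Smad4* states with TGFβ1, are highest in Smad4-on cells with TGFβ1. *Tgif2* stays below 2 CPM.

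*Pmepa1* (ENSMUSG00000038400; chromosome 2, 173224458 to 173276533, minus strand) gave the widest response. In Smad4-on cells it stood at 58.8 CPM in B73 and 30.7 CPM in B87 with SB505124, and at 647 and 637 CPM with TGFβ1. In Smad4-off cells it went from 38.6 and 39.2 CPM to 463 and 483 CPM, in the same order of lines. All 4 TGFβ1 libraries lay far above all 4 SB505124 libraries. The log2 fold change was 3.88 ± 0.26 (SE) in Smad4-on cells and 3.61 ± 0.25 in Smad4-off cells (edgeR adjusted p 0.000151 and 0.000662). Counted from the largest rise down, it ranked 91 of 14301 tested genes in the former and 66 in the latter. The lines gave uneven folds in Smad4-on cells, 10.99 in B73 and 20.7 in B87, with SB505124 levels that differed, while the Smad4-off folds were 12.0 and 12.3.

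Of the nuclear corepressors, *Skil* (ENSMUSG00000027660; chromosome 3, 31095058 to 31122577, plus strand) responded most. With SB505124 it was at 48.6 CPM in B73 and 57.5 CPM in B87 Smad4-off cells, and at 44.7 and 46.4 CPM in Smad4-on cells. With TGFβ1 it rose to 161 and 191 CPM with *Smad4* off and to 249 and 271 CPM with *Smad4* on. The 4 groups did not overlap, although the inhibitor groups lay close together. How many of all tested genes separate likewise was not counted. The rise was 5.70-fold in Smad4-on cells (log2 fold change 2.51 ± 0.09, edgeR adjusted p 2.6e-05) and 3.32-fold in Smad4-off cells (1.73 ± 0.09, adjusted p 0.000231). Both lines gave nearly the same folds, 5.56 in B73 and 5.83 in B87 with *Smad4* on, and 3.31 and 3.33 with it off.

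Its relative *Ski* (ENSMUSG00000029050; chromosome 4, 155154075 to 155222592, minus strand) moved less. With *Smad4* on, the B73 level was 133 CPM under SB505124 and 228 CPM under TGFβ1, and the B87 level 148 and 259 CPM. With *Smad4* off, the same pairs were 99.8 and 151 CPM in B73 and 129 and 198 CPM in B87. B87 was above B73 in every group, and within each line the level was higher with TGFβ1 than with SB505124. The log2 fold changes were 0.79 ± 0.09 with *Smad4* on and 0.61 ± 0.09 with it off (edgeR adjusted p 0.00107 and 0.00755). The balance of the pair therefore shifted toward *Skil*. On counts per kb of exon, the log2 ratio of *Skil* to *Ski* was -1.84 and -1.97 in Smad4-off and -2.38 and -2.47 in Smad4-on cells with SB505124, and between -0.85 and -0.67 in all 4 TGFβ1 libraries.

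Of the homeodomain corepressors, *Tgif1* (ENSMUSG00000047407; chromosome 17, 70844205 to 70853546, minus strand) rose 3.02-fold where *Smad4* was on and 2.24-fold where it was off (log2 fold changes 1.596 ± 0.09 and 1.17 ± 0.09, edgeR adjusted p 0.000109 and 0.000969). Its levels with TGFβ1 lay within 215 to 223 CPM in all 4 libraries, whatever the line or *Smad4* state. With SB505124 they were 104 and 89.0 CPM in Smad4-off cells and 70.6 and 74.0 CPM in Smad4-on cells, for B73 and B87. The inhibitor level was thus lower with *Smad4* on in both lines, a difference that did not pass its own test (edgeR adjusted p 0.104).

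*Tgif2* (ENSMUSG00000062175; chromosome 2, 156840007 to 156855570, plus strand) was barely expressed. It had 7 to 44 counts per library, or 0.357 to 1.83 CPM. In Smad4-on cells it was at 0.702 CPM in B73 and 1.83 CPM in B87 with SB505124 and at 0.357 and 0.612 CPM with TGFβ1, a log2 difference of -1.36 ± 0.44 that missed the threshold (edgeR adjusted p 0.0533, and 0.0262 to 0.43 over the alternatives, 3 of which were under 0.05). In Smad4-off cells it was at 1.35 and 1.45 CPM with SB505124 and at 1.07 and 1.20 CPM with TGFβ1 (log2 difference -0.29 ± 0.39, adjusted p 0.668). On the gene models of GENCODE M21, 61.59% of its exon bases overlap antisense genes, mainly 5430405H02Rik, and the strand setting of the counting is not given in the sources used here, so reads of either strand may be in its count. On counts per kb, the log2 ratio of *Tgif2* to *Tgif1* was between -6.10 and -4.78 with SB505124 and between -8.73 and -6.94 with TGFβ1.

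**Figure D2:**
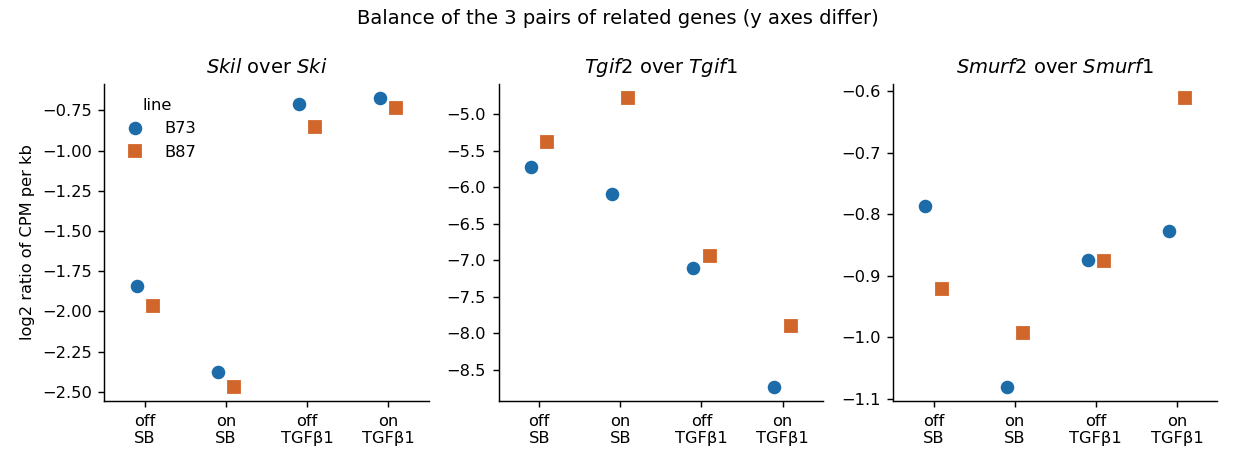
Log2 ratio of counts per kb of exon for *Skil* over *Ski*, *Tgif2* over *Tgif1* and *Smurf2* over *Smurf1*, with 1 point per library (circles B73, squares B87) and a y axis that differs between panels and does not start at 0. The *Skil* to *Ski* ratio is above -0.9 in all TGFβ1 libraries and below -1.8 in all SB505124 libraries, and the *Smurf2* to *Smurf1* ratio spans only -1.08 to -0.61.

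The ligases *Smurf1* (ENSMUSG00000038780; chromosome 5, 144876495 to 144965847, minus strand) and *Smurf2* (ENSMUSG00000018363; chromosome 11, 106820066 to 106920715, minus strand) rose in both *Smad4* states. With *Smad4* on, *Smurf2* was at 60.0 CPM in B73 and 77.0 CPM in B87 under SB505124, and at 119 and 155 CPM under TGFβ1. With *Smad4* off, it was at 65.5 and 71.0 CPM and then at 92.0 and 108 CPM. *Smurf1*, in the same order of lines, was at 131 and 158 CPM and then at 218 and 243 CPM with *Smad4* on. With *Smad4* off, it was at 116 and 138 CPM and then at 173 and 204 CPM. For both genes the TGFβ1 and SB505124 libraries did not overlap within a *Smad4* state, which was not counted over all tested genes either. The *Smurf2* log2 fold changes were 1.00 ± 0.09 with *Smad4* on and 0.55 ± 0.09 with it off (edgeR adjusted p 0.000436 and 0.0114). Those of *Smurf1* were 0.68 ± 0.07 and 0.57 ± 0.07 (edgeR adjusted p 0.000857 and 0.00476). *Smurf2* stayed below *Smurf1* per kb in every library.

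*Trim33* (ENSMUSG00000033014; chromosome 3, 103279293 to 103358775, plus strand) was the flattest member. With *Smad4* on, the inhibitor and TGFβ1 levels were 86.99 and 131 CPM in B73 and 84.4 and 106 CPM in B87 (log2 fold change 0.46 ± 0.09, edgeR adjusted p 0.00805). With *Smad4* off, they were 97.1 and 107 CPM and 89.5 and 97.4 CPM, a log2 difference of 0.13 ± 0.09 that did not pass (adjusted p 0.389). The rise with *Smad4* on was larger in B73, 1.51-fold against 1.25-fold in B87. Its call was lost with no replicate block (edgeR adjusted p 0.0544) and without either B73 Smad4-on library (adjusted p 0.0571 and 0.0597).

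The next question was how much of this difference between treatments remained when *Smad4* was depleted. In Smad4-off cells 6 of the 8 genes were called higher with TGFβ1, *Pmepa1*, *Skil*, *Tgif1*, *Ski*, *Smurf1* and *Smurf2*, where 6.96% of all tested genes were called higher and 6.24% lower. The median log2 fold change of the 8 was 0.59, against -0.02 over all tested genes. *Pmepa1*, *Skil* and *Tgif1* again exceeded 2-fold (3.11% of genes higher under that rule). With no replicate block, that is without the line in the model, those 3 were the ones still called in Smad4-off cells, and 6 were called in Smad4-on cells. In Smad4-off cells leaving out the B87 TGFβ1 library also left the calls of these 3 alone.

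**Figure D3:**
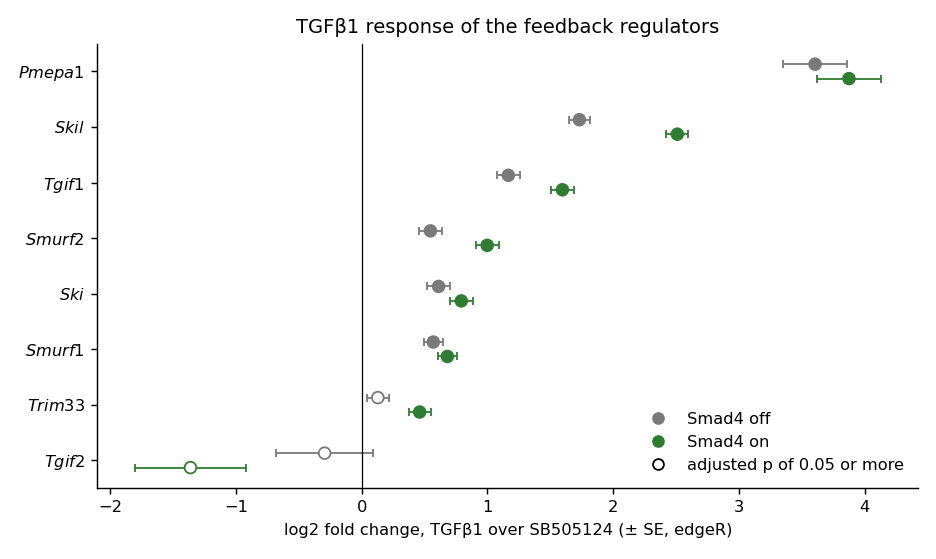
Log2 fold change of TGFβ1 over SB505124 for each member (x axis, points with SE from the edgeR fit over 8 libraries) in Smad4-off (grey) and Smad4-on (green) cells, open where the adjusted p was 0.05 or more. The point for Smad4-on cells lies to the right for 7 members, from 0.46 to 3.88, and *Tgif2* lies left of 0 in both states.

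A direct test of whether the TGFβ1 response differed between the *Smad4* states called none of the 8 genes, and 0.196% of all tested genes. An unadjusted p under 0.05 was given to 4 members, *Skil*, *Smurf2*, *Tgif1* and *Trim33*, and to 10.4% of all tested genes. The largest of these was *Skil*, whose log2 response was greater by 0.78 ± 0.12 in Smad4-on cells (edgeR adjusted p 0.103), by 0.75 in B73 and 0.81 in B87. DESeq2 with the line in its model called *Skil* in this test, and so did edgeR with no filter on low counts. For *Smurf2* the difference was 0.45 ± 0.13 (adjusted p 0.282), for *Tgif1* 0.43 ± 0.13 (adjusted p 0.303) and for *Trim33* 0.33 ± 0.12 (adjusted p 0.409), positive in both lines in each case. For *Ski* it was 0.18 ± 0.13, for *Smurf1* 0.11 ± 0.10 and for *Pmepa1* 0.27 ± 0.33, and none of these values shows that the states responded alike.

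The same libraries were then read the other way, Smad4-on against Smad4-off cells within a treatment. With TGFβ1 present, 3 of 8 genes were called higher in Smad4-on cells, *Skil*, *Ski* and *Smurf2*, where 3.52% of all tested genes were called higher and 3.28% lower. The log2 fold changes were 0.56 ± 0.08 for *Skil*, 0.49 ± 0.09 for *Ski* and 0.45 ± 0.09 for *Smurf2* (edgeR adjusted p 0.0121, 0.0272 and 0.0344). Put as levels, *Skil* in Smad4-off cells was at 64.7% of its Smad4-on level in B73 and 70.7% in B87, *Ski* at 66.5% and 76.5%, and *Smurf2* at 77.1% and 69.8%. All 3 were higher in both lines, and none exceeded 2-fold.

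Whether these 3 genes were called depended on single libraries and on the line in the model. With no replicate block none of them passed in edgeR, whose calls over all tested genes fell from 973 to 43. In DESeq2 with that setting, which called 670 of all tested genes, 1 of them, *Skil*, passed (adjusted p 0.00494). In edgeR, leaving out B73 or B87 Smad4-off cells with TGFβ1, or B73 Smad4-on cells with TGFβ1, left 0 calls. Without B87 Smad4-on cells with TGFβ1, *Skil* was the one call left, and without either Smad4-on library with SB505124 the call of *Smurf2* was lost (edgeR adjusted p 0.0531 and 0.0528). In those smaller fits the group with 1 library is assumed to vary as the others do. With any 1 TGFβ1 library left out, fewer of all tested genes were called as well. The log2 fold changes then ran from 0.51 to 0.61 for *Skil*, 0.41 to 0.56 for *Ski* and 0.38 to 0.52 for *Smurf2*.

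*Pmepa1* was at 71.7% and 75.9% of its Smad4-on level in Smad4-off cells with TGFβ1, a log2 difference of 0.44 ± 0.22 that did not pass (edgeR adjusted p 0.293). It passed in the fit of the 4 TGFβ1 libraries alone (adjusted p 0.0277) and without either Smad4-on library with SB505124 (adjusted p 0.0346 and 0.0356). *Smurf1* differed by 0.29 ± 0.07 (adjusted p 0.0651), *Trim33* by 0.21 ± 0.09 (adjusted p 0.203) and *Tgif1* by 0.01 ± 0.09 (adjusted p 0.948). *Tgif2* was lower by a log2 difference of -1.25 ± 0.45 (adjusted p 0.151).

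With the receptor kinase inhibited, no member was called between the *Smad4* states, while 0.972% of all tested genes were called higher and 0.622% lower. In edgeR 4 members had an unadjusted p under 0.05, as had 12.6% of all tested genes. DESeq2 with the line called 1 member, *Tgif1*, and 491 of all tested genes, against 228 in edgeR. The *Tgif1* difference was -0.42 ± 0.09 on the log2 scale (edgeR adjusted p 0.104), lower in Smad4-on cells of both lines. *Ski* differed by 0.31 ± 0.09 (adjusted p 0.216), *Smurf1* by 0.18 ± 0.07 (adjusted p 0.388) and *Skil* by -0.21 ± 0.09 (adjusted p 0.361). *Pmepa1* went in opposite directions in the lines, up from 38.6 to 58.8 CPM in B73 and down from 39.2 to 30.7 CPM in B87.

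**Figure D4:**
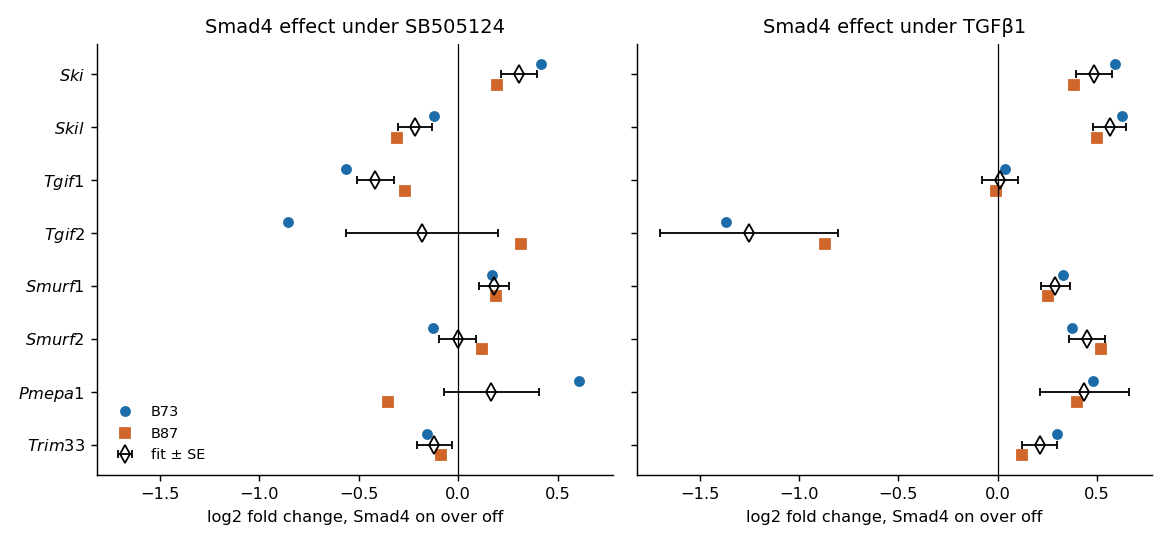
Log2 fold change of Smad4-on over Smad4-off cells for each member (x axis) under SB505124 (left) and TGFβ1 (right), with circles for B73 and squares for B87 taken from log2 CPM, and diamonds with SE for the edgeR fit. With TGFβ1 the points of *Ski*, *Skil*, *Smurf1*, *Smurf2*, *Pmepa1* and *Trim33* lie right of 0 in both lines, whereas with SB505124 the lines fall on opposite sides of 0 for *Tgif2*, *Smurf2* and *Pmepa1*.

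Some members also differed a little between the lines. Averaged over conditions, B87 was higher than B73 by a log2 difference of 0.27 ± 0.06 for *Ski*, 0.23 ± 0.05 for *Smurf1* and 0.27 ± 0.06 for *Smurf2* (edgeR adjusted p 0.0275, 0.0253 and 0.0281), so that 3 of 8 members were called where 18.6% of all tested genes were. The calls for the lines fell to 0 without either Smad4-off library with TGFβ1, and to 1 without any 1 of the SB505124 libraries. No member was called in the test of whether the TGFβ1 effect differed between the lines, in which edgeR called 0.0% of tested genes and gave no member an unadjusted p under 0.05. The *Smad4* effect differed between the lines for none of the members either (0.406% of tested genes), and for *Pmepa1* it was -0.49 ± 0.27 on the log2 scale for B87 against B73 (adjusted p 0.644). This value moved to -0.05 when either Smad4-on library with SB505124 was left out, and to -0.98 when either Smad4-on library with TGFβ1 was, where it passed (edgeR adjusted p 0.0388 and 0.0411).

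Set on a common scale per kb of exon, the order of the 8 genes was not the same in every group. In Smad4-off cells with SB505124 the levels were 20.5 ± 3.69 CPM per kb for *Ski*, 20.1 ± 2.45 for *Smurf1*, 17.2 ± 1.93 for *Tgif1* and 11.1 ± 0.626 for *Smurf2* (SD, n = 2). Below them came *Trim33* at 9.52 ± 0.545, *Pmepa1* at 7.92 ± 0.0926, *Skil* at 5.47 ± 0.649 and *Tgif2* at 0.365 ± 0.0188 CPM per kb. *Ski*, *Smurf1* and *Tgif1* overlapped between libraries and could not be ordered on this length. With each gene's longest transcript in place of all its exons, *Tgif1* was at 33.2 and 28.3 CPM per kb in B73 and B87. It then lay above *Smurf1* at 21.4 and 25.5 and *Ski* at 18.1 and 23.3 CPM per kb.

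In Smad4-off cells with TGFβ1, *Pmepa1* was at 96.3 ± 2.85 CPM per kb, *Tgif1* at 38.5 ± 0.163, *Ski* at 31.4 ± 5.99 and *Smurf1* at 29.8 ± 3.40 (SD, n = 2). *Skil* was at 18.2 ± 2.24, *Smurf2* at 16.2 ± 1.84, *Trim33* at 10.4 ± 0.665 and *Tgif2* at 0.296 ± 0.0229 CPM per kb. *Ski* and *Smurf1* overlapped, as did *Skil* and *Smurf2*. With the longest transcript as length, *Skil* (23.9 in B73 and 28.5 in B87) lay above *Smurf2* (17.4 and 20.4 CPM per kb).

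In Smad4-on cells with TGFβ1, *Pmepa1* led at 131 ± 1.42 CPM per kb, followed by *Ski* at 43.8 ± 4.03, *Tgif1* at 38.9 ± 1.04, *Smurf1* at 36.4 ± 2.87, *Skil* at 26.8 ± 1.62, *Smurf2* at 22.2 ± 4.08, *Trim33* at 12.1 ± 1.82 and *Tgif2* at 0.126 ± 0.047 (SD, n = 2). *Tgif1* and *Smurf1* overlapped, and the other neighbours did not. The order in the middle depends on the length taken. With the longest transcript of each gene in place of all its exons, *Tgif1* came to 69.6 ± 1.85 CPM per kb and *Skil* to 38.7 ± 2.34, against 44.1 ± 4.06 for *Ski* and 42.5 ± 3.35 for *Smurf1*, so that *Tgif1* stood above *Ski*.

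The feedback genes were set beside 4 lists of pathway genes. Of 10 other inhibitors, 2 rose with TGFβ1 in both *Smad4* states, the inhibitory SMAD *Smad7* and *Ldlrad4*, which encodes a membrane protein related to PMEPA1. *Smad7* rose by a log2 fold change of 2.48 ± 0.12 with *Smad4* on and 1.93 ± 0.12 with *Smad4* off, and *Ldlrad4* by 2.38 ± 0.15 and 1.49 ± 0.15. Under TGFβ1 both were also called higher when *Smad4* was on, by 1.14 ± 0.11 and 0.89 ± 0.14. *Smad6*, the inhibitory SMAD linked mainly to BMP signaling, went the other way with TGFβ1, by -2.31 ± 0.14 and -0.88 ± 0.14, and was called higher in Smad4-on cells under SB505124 (1.17 ± 0.13). The ligase gene *Nedd4l* also fell in Smad4-on cells (-0.38 ± 0.09). *Bambi*, *Wwp1*, *Ppm1a*, *Strap*, *Fkbp1a* and *Lemd3* were not called for TGFβ1 in either state. The adjusted p-values behind the calls named here lay below 0.05 in the edgeR fit over all genes.

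Of 10 corepressor partners, which work with SKI, SKIL and TGIF proteins, 4 were called higher with TGFβ1 in Smad4-on cells and none lower, among them *Ctbp2* at 0.72 ± 0.10 and *Hdac1* at 0.31 ± 0.07 on the log2 scale. Under TGFβ1 *Ctbp2* was called higher in Smad4-on cells (0.49 ± 0.10). Of 6 turnover genes, the ligase gene *Rnf111* (Arkadia, which degrades SKI and SKIL) rose with TGFβ1 by 0.41 ± 0.09 with *Smad4* on and 0.35 ± 0.09 with it off. *Fzr1* fell with TGFβ1 by 0.31 with *Smad4* on, and *Usp11*, a deubiquitinase gene, was lower in Smad4-on cells under TGFβ1 (-1.01 ± 0.22). Of 5 core carriers of the signal, *Tgfbr2* fell with TGFβ1 in Smad4-on cells (-0.55 ± 0.14), and *Tgfbr1*, *Smad2* and *Smad3* were not called for TGFβ1 or for *Smad4*.

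**Figure D5:**
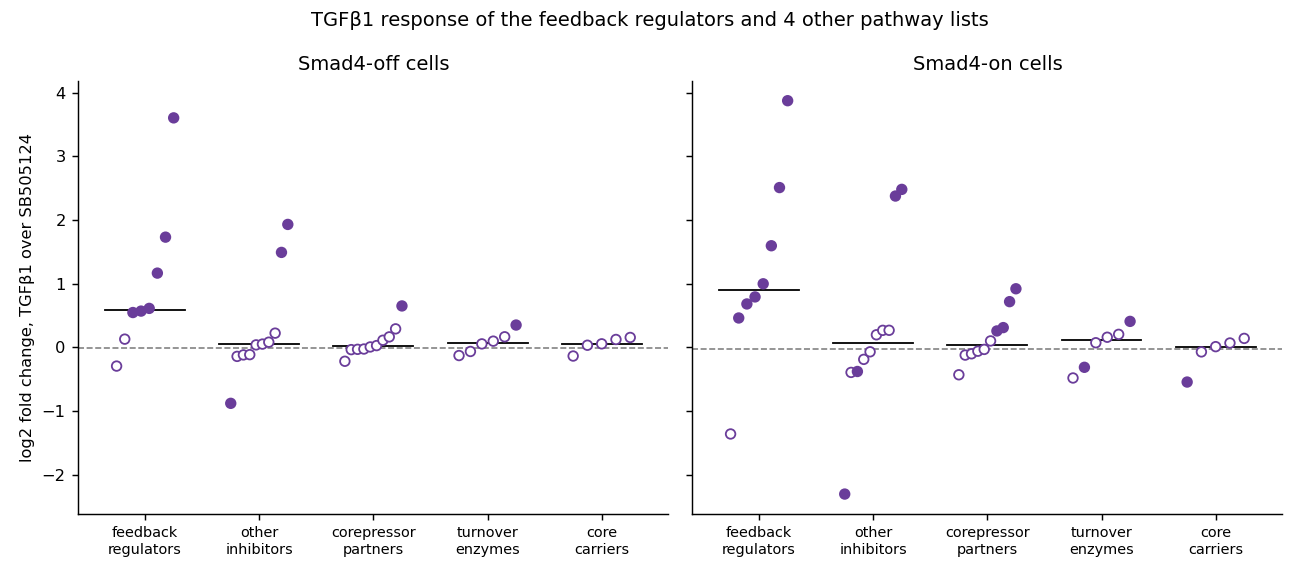
Log2 fold change of TGFβ1 over SB505124 (y axis) for the 8 feedback regulators and the genes of 4 other lists in Smad4-off (left) and Smad4-on (right) cells, with filled points for adjusted p under 0.05, a bar at each list's median and a dashed line at the median of all tested genes. The feedback regulators have medians of 0.59 and 0.90, while the medians of the other lists lie between 0.01 and 0.12.

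In Smad4-on cells the list medians for TGFβ1 were 0.06 for other inhibitors, 0.03 for corepressor partners, 0.12 for turnover genes and 0.01 for core carriers. In Smad4-off cells they were 0.04, 0.02, 0.08 and 0.06. These are descriptions of the lists and carry no test.

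For the 2 members with the widest range of log2 CPM, *Pmepa1* (4.39 between its lowest and highest library) and *Skil* (2.60), the genes with the most similar profile were sought among 9410 expressed genes. After each line's mean was subtracted, *Slc25a25* (r = 0.998), *Dpp3* (r = 0.996) and *Clu* (r = 0.996) came closest to *Pmepa1*. *Tmem206* (r = 0.997), *Hmga2* (r = 0.997) and *Errfi1* (r = 0.996) came closest to *Skil*. *Pmepa1* and *Skil* themselves correlated at r = 0.987. These Pearson correlations run over 8 libraries that share treatments and lines and take no account of size, since *Dpp3* spanned only 0.79 on the log2 scale and *Clu* 4.86.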

How the data were processed

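The deposited table holds raw counts per Ensembl gene for 8 libraries. Per the labels and methods, the authors made stranded poly(A) libraries, sequenced single-end 75-bp reads, and used FastQC 0.11.5, Trimmomatic 0.36, STAR 2.5.3a and featureCounts 1.6.3 on GRCm38 (mm10). Strand and multimapping settings of the counting are not given in the sources used here.

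Counts were fitted in edgeR 4.0.16 (R 4.3.3) with TMM normalization, filterByExpr and the quasi-likelihood test, all 8 libraries in 1 model of 4 groups and line. Genes were called at a Benjamini-Hochberg adjusted p under 0.05 over 14301 genes. SEs are the log2 fold change divided by the root of F. The study used DESeq2, names no covariate and asks for over 2-fold. The line was kept because titles name it in every group; in the 6 pairs of groups, same-line deviations from the group mean had r = 0.642 to 0.774. For DESeq2 1.42.0 and other alternatives see the closing section. Values per line used log2 CPM with a prior count of 2. Floors cover counting error only.

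Members, lists and tests were chosen with earlier results of these data known. Named were all members and, per list and contrast, at most 3 called genes of largest change. *Nedd4l*, *Bambi* and the other genes listed as not called, with *Smad4* and the markers, stand outside that rule. The script was tested on simulated data. Overlaps and lengths came from GENCODE M21, and apart from *Tgif2* no member shared a 75-base transcript stretch with another gene. Single values of 1 corepressor partner, and 1 allele of the mouse model, are not reported here, though list counts and medians hold that gene.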

Additional observations from a re-analysis of the deposited data

Results flagged for a closer look

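Between treatments, the *Smad4* effect on *Skil* and *Trim33* had opposite signs in both lines. *Skil* was lower in Smad4-on cells under SB505124 and higher under TGFβ1, and the difference of 0.78 on the log2 scale had an edgeR adjusted p of 0.103 in the interaction test. For *Trim33* the same pattern gave a difference of 0.33 and an adjusted p of 0.409. Neither difference passed the test, and each effect is seen in 2 of 2 lines. Groups of 2 libraries are too small for a test of single libraries that stand apart.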

How the results depend on the processing

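Across the alternatives run, the TGFβ1 calls of *Pmepa1*, *Skil* and *Tgif1* passed in both *Smad4* states under every one. The other counts moved. The line pairs the libraries (r = 0.642 to 0.774). With no replicate block, members called for *Smad4* under TGFβ1 went from 3 to 0 in edgeR and to 1 in DESeq2, and those for TGFβ1 in Smad4-off cells from 6 to 3 in edgeR. Over all genes tested, this setting took the calls for *Smad4* under TGFβ1 from 973 to 43, under SB505124 from 228 to 2, for TGFβ1 from 4751 to 2180 in Smad4-on and from 1888 to 270 in Smad4-off cells, and for the interaction from 28 to 0. DESeq2 with the line called 1 member for *Smad4* under SB505124 (*Tgif1*) and 1 in the interaction (*Skil*), and so did DESeq2 with no replicate block and edgeR with no filter on low counts, which also called 1 (*Pmepa1*) for the difference of the *Smad4* effect between lines. Over all genes these settings called 491, 180 and 792, in that order, for *Smad4* under SB505124, against 228 in the main fit. Asking for over 2-fold left 3 members for TGFβ1 in each *Smad4* state, 0 for *Smad4* under TGFβ1 and 0 between the lines.

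Leaving out each library in turn gave 0 to 3 members for *Smad4* under TGFβ1, 3 to 6 for TGFβ1 in Smad4-off and 6 to 7 in Smad4-on cells, 0 to 2 between the lines and 0 to 1 (*Pmepa1*) for the *Smad4* effect between lines. Signs turned for values that were not called. Those for *Smad4* under SB505124 ran from -0.36 to 0.62 for *Pmepa1*, -0.84 to 0.25 for *Tgif2* and -0.10 to 0.10 for *Smurf2*, the last also at 0.007 with no replicate block, 0.0111 in DESeq2 without the line, 0.002 with it, 0.0015 with DESeq2 size factors and 0.006 with no filter. For *Tgif1* under TGFβ1 the range was -0.0166 to 0.0388, for *Tgif2* with TGFβ1 in Smad4-off cells -0.61 to 0.0269, and for the *Pmepa1* interaction -0.18 to 0.79. Causes were not tested beyond what fewer libraries imply. Of the other single-member values recomputed, 559 kept direction and side of the threshold, 46 lost a call and 16 gained one. Among the members depth limits *Tgif2* most, at 7 to 44 counts.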
